A study of Arabidopsis thaliana with 6 samples.

Results

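A set of 42 nuclear genes of Arabidopsis thaliana that encode immune receptors, their signalling partners and their outputs was followed through RNA immunoprecipitation sequencing (RIP-seq) of the nuclear speckle protein NSRa. The genes were picked by their listed gene identifiers, and all 42 were found among the 39351 features of the table. To ask which RNAs NSRa is bound to, seedlings carrying NSRa fused to the HA epitope, a peptide tag from hemagglutinin, were crosslinked with UV light at 0.400 J/cm2, and RNA was sequenced from the lysate before the pull-down (Input, 2 libraries), from the anti-HA pull-down (RIP, 2 libraries) and from a control pull-down with mouse IgG (Mock, 2 libraries). All 6 libraries share their plants' genotype, the nsra mutant carrying the pNSRa:NSRa-HA construct, in which the tagged protein is driven by its own promoter, and all were exposed over 24 h to naphthaleneacetic acid (NAA), a synthetic auxin. The NAA concentration is 1 µM in the treatment protocol and 100 nM in the extraction protocol, and the age of the plantlets is given as 15, 14 and 10 days in different places. Mock thus differs from RIP in the antibody and not in the plants, and the number of independent transgenic lines is not given in the sources used here. Nothing states that libraries of a group came from separate cultures, so that p-values measure only the spread between these libraries, which may be technical.

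Plants detect microbes at the cell surface with receptor kinases, which recognise bacterial flagellin, the bacterial elongation factor EF-Tu, fungal chitin or the plant's own Pep peptides, and which act with co-receptors such as BAK1. The signal passes through cytoplasmic kinases, MAP kinase cascades and an oxidase that releases reactive oxygen, and is damped by ubiquitin ligases such as PUB22, PUB23 and PUB24. A second layer uses intracellular receptors, the EDS1 complexes and salicylic acid, whose synthesis gene ICS1 is switched on by the transcription factors CBP60G and SARD1.

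Several of these genes are close paralogues, and the reads were 75 bases long, so that sequence decides whether their levels can be told apart. Of the 42 genes, only PEPR1 (47 of 3680 exonic stretches of 75 bases, 1.28%) and NDR1 (14 of 925, 1.51%) hold stretches with a further exact copy in the genome. The coding stretches in which PUB22 and PUB23 resemble each other most are shown because both ligases are among the genes with the largest ratios of RIP to Input below. Positions refer to TAIR10.1, sequences are RefSeq's and run 5′ to 3′ along the coding strand, and capitals mark the bases that differ within a pair.
PUB22 (chr3:19442149-19442223, minus strand, exon): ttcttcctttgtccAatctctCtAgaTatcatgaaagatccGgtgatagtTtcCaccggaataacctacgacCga
PUB23 (chr2:15084220-15084294, minus strand, exon): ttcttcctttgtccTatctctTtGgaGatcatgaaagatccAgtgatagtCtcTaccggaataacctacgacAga
The stretch has 67 matching and 8 differing bases. Elsewhere in their coding sequences the longest shared run is 26 bases. MKK4 and MKK5, which act on the same MAP kinases, are the most alike of the pairs compared and are shown because their Mock values below differ in opposite libraries.
MKK4 (chr1:19154972-19155046, plus strand, exon): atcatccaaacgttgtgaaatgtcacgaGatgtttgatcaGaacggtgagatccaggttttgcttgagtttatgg
MKK5 (chr3:7446287-7446361, plus strand, exon): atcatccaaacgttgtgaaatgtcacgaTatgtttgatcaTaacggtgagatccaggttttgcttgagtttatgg
In this stretch 73 of 75 bases match, and the longest run shared elsewhere in the coding sequences of the pair is 40 bases. CBP60G and SARD1, which are compared below, match in 52 of 75 bases at their most similar stretch (69.3%).

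Depth differed widely between groups. The Input libraries held 27494964 and 25274634 reads, RIP 1599136 and 977230, and Mock 197923 and 154149, as recovered from the deposited values. The unit used throughout is FPKM, fragments per kilobase of exon scaled to library size, and values are given in the order of the replicate numbers. Green tissue genes were abundant in Input (RBCS1A, the small subunit of Rubisco, at 3545 and 3598 FPKM) and root genes were detected (EXPA7, a root hair expansin, at 9.51 and 7.69), so that shoot and root tissue were both present. These markers moved with the comparison of RIP and Input. The summed level of the 4 root genes EXPA7, COBL9, PRP3 and TIP2-3 was 52.1 and 45.9 FPKM in Input, 8.02 and 0 in RIP and 0 in both Mock libraries, and EXPA7, COBL9 and PRP3 had no read in RIP or Mock. The summed level of the 3 green tissue genes RBCS1A, LHCB1.3 and LHCB2.1 was 19545 and 19229 FPKM in Input, 10665 and 11859 in RIP and 5635 and 14042 in Mock, and LHCB2.1, a light-harvesting protein gene, went from 3440 and 3392 in Input to 227 and 31.3 in RIP. The RIP level of the root genes came from TIP2-3 alone, at 3.48 and 3.08 FPKM in Input and 8.02 and 0 in RIP. RBCS1A (1889 and 2496 FPKM in RIP) and LHCB1.3 (12559.8 and 12238.5 in Input, 8549 and 9332 in RIP) fell less than LHCB2.1. The part of these shifts in the results for the immune genes was not tested. The 42 genes took 0.131% of the reads in Input replicate 1 (95% exact binomial interval 0.130 to 0.132) and 0.131% in replicate 2 (0.130 to 0.132), whereas RIP gave 0.280% (0.272 to 0.288) and 0.209% (0.200 to 0.218). Mock replicate 1 gave 0.102% (0.0880 to 0.117) and replicate 2 gave 0.271% (0.246 to 0.298). The intervals cover counting error only. The share was therefore higher in both RIP libraries than in Input, and Mock replicate 2 reached the level of RIP while Mock replicate 1 lay below Input. At least 1 read was found for 41 and 42 of the genes in Input, for 36 and 38 in RIP and for 7 and 15 in Mock.

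The RIP values were first set against Input, to ask which immune transcripts were enriched by the anti-HA pull-down. Of 42 genes, 39 reached 1 FPKM in at least 2 libraries and were tested among 19997 features. A gene counted as enriched where its log2 fold change exceeded 2 and its adjusted p was below 0.01. PUB22 and CBP60G passed, that is 2 of 39 genes, where 1.48% of all features passed the same thresholds. None of the 39 was called lower, against 5.78% of all features (limma, Benjamini-Hochberg). At an unadjusted p under 0.05, 5 genes were higher (EFR, PEPR1, PUB22, PUB23 and CBP60G) and 2 lower (MPK11 and MLO12), that is 12.8% and 5.13% of the 39, against 9.02% and 25% of all features. With voom on the recovered reads 0 were called in either direction. The median log2 fold change of the 39 genes was 0.50, against -0.52 over all features, and 29 of 39 (74.4%) lay above 0, against 32.9%. Both RIP libraries exceeded both Input libraries in 23 genes (59.0%), where 22.7% of all features did so, and both fell below both Input libraries in 6 (15.4%), against 50.2%. After quantile normalization the medians were 0.86 for the immune genes and -0.00 for all features. Seedlings were sampled whole, so that fewer cells expressing a gene and less RNA per cell cannot be told apart in the level of any single library. The RIP over Input comparison sets the pull-down against the lysate before it, not 1 tissue against another.

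**Figure D1:**
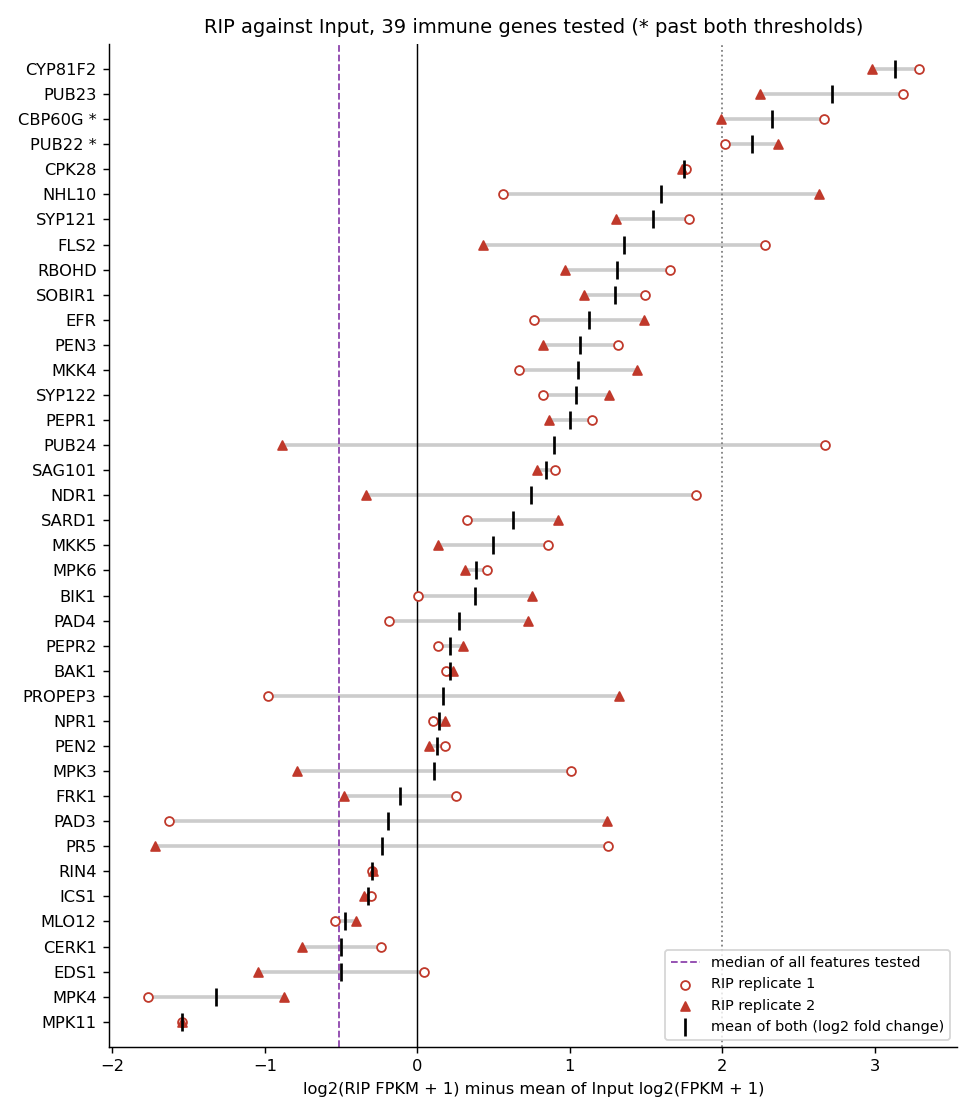
Difference of each RIP library from the mean of Input on the log2(FPKM + 1) scale for the 39 immune genes tested, ordered by the mean of both RIP libraries (black tick), with open circles for RIP replicate 1 and triangles for replicate 2. The dashed line is the median of all features (-0.52) and the dotted line the fold threshold of 2, which CYP81F2, PUB23, CBP60G and PUB22 exceeded, while an asterisk marks those that also passed the adjusted p.

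Of the U-box ubiquitin ligases, which dampen responses to microbial patterns, PUB22 and PUB23 were among the genes with the largest log2 fold changes over Input, whereas PUB24 was not. PUB22 (AT3G52450, chromosome 3, 19440617 to 19442427, no intron) stood at 3.03 and 2.80 FPKM in Input, 14.8 and 19.2 in RIP and 0 in both Mock libraries. These values rest on 151 and 128 reads in Input and 43 and 34 in RIP, and the FPKM of the RIP and Input libraries did not overlap. The means were 2.91 ± 0.167 in Input and 17.0 ± 3.09 in RIP (SD, n = 2), a ratio of 5.84, and the log2 fold change was 2.19 ± 0.182 (SE; limma with Benjamini-Hochberg, adjusted p = 0.00265). PUB23 (AT2G35930, chromosome 2, 15082855 to 15084559, no intron), its close paralogue, stood at 6.14 and 5.92 FPKM in Input, 63.1 and 32.4 in RIP and 0 in Mock. Both RIP libraries were far above both Input libraries, but they differed from each other by more than those of PUB22. Its log2 fold change of 2.72 ± 0.381 came with an adjusted p of 0.0137 (limma with Benjamini-Hochberg), just outside the threshold. PUB24 (AT3G11840, chromosome 3, 3736578 to 3738208), with 2.12 and 2.34 FPKM in Input, was at 19.6 in RIP replicate 1 (43 reads) and 0.746 in replicate 2 (1 read), and at 0 in Mock. Only the first RIP library was therefore above Input, and the log2 fold change of 0.89 ± 1.26 did not pass (limma with Benjamini-Hochberg, adjusted p = 0.742).

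The salicylic acid branch held the other gene called. CBP60G (AT5G26920, chromosome 5, 9475679 to 9478777), a calmodulin-binding transcription factor that activates ICS1, stood at 1.85 and 2.02 FPKM in Input (117 and 118 reads), 17.6 and 10.7 in RIP (65 and 24 reads) and 0 in Mock. Its RIP and Input libraries did not overlap, the ratio of means was 7.31, and the log2 fold change was 2.33 ± 0.266 (limma with Benjamini-Hochberg, adjusted p = 0.00741). Its homologue SARD1 (AT1G73805, chromosome 1, 27744790 to 27749248), which acts beside it at ICS1, was low in Input at 0.455 and 0.396 FPKM and reached 0.783 and 1.71 in RIP on 3 and 4 reads, but 12.6 and 21.7 in Mock on 6 and 8 reads. SARD1 thus showed its highest level with IgG, in both libraries. Outside Mock it reached 1 FPKM only in RIP replicate 2, so that it entered the test through the group where it was high. It was the only immune gene lower in RIP than in Mock (log2 fold change -3.00, limma with Benjamini-Hochberg, adjusted p = 0.00391), a call made for 0.180% of all features, and the only one higher in Mock than in Input (3.62, limma with Benjamini-Hochberg, adjusted p = 0.00156), a call made for 0.715%. With no filter on low values both calls stayed (limma with Benjamini-Hochberg, adjusted p = 0.00619 and 0.00209). The first of these calls was lost when RIP and Mock were fitted alone (limma with Benjamini-Hochberg, adjusted p = 0.0347) or when any of the Input or RIP libraries was left out (0.0104 to 0.0169) or with voom (0.0210), and the second without either Input library (0.0185 and 0.0191), with the directions kept.

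The other genes of the EDS1 complexes and salicylic acid lay close to Input. EDS1 (AT3G48090), the lipase-like hub of intracellular receptor signalling, was at 10.6 and 9.80 FPKM in Input, 10.5 and 4.41 in RIP and 1.98 and 17.8 in Mock. Its partner PAD4 (AT3G52430) was at 4.68 and 4.42 FPKM in Input, 3.88 and 8.17 in RIP and 0 in Mock. SAG101 (AT5G14930), the alternative partner of EDS1, was at 4.67 and 4.73 in Input, 9.66 and 8.83 in RIP, and 0 and 8.84 in Mock. Of these, only SAG101 had both RIP libraries above both Input libraries. ICS1 (AT1G74710), which makes the salicylic acid precursor, was slightly lower in RIP, at 6.31 and 6.10 FPKM, than in Input, at 8.07 and 8.00, and was 0 in Mock. NPR1 (AT1G64280), a salicylic acid receptor and transcriptional co-activator, was nearly level, at 12.5 and 12.8 FPKM in Input and 13.6 and 14.5 in RIP, and was 0 in Mock. The log2 fold changes of these genes over Input ran from -0.50 in EDS1 to 0.84 in SAG101, and none passed (limma with Benjamini-Hochberg, adjusted p from 0.172 in ICS1 to 0.842 in EDS1).

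**Figure D2:**
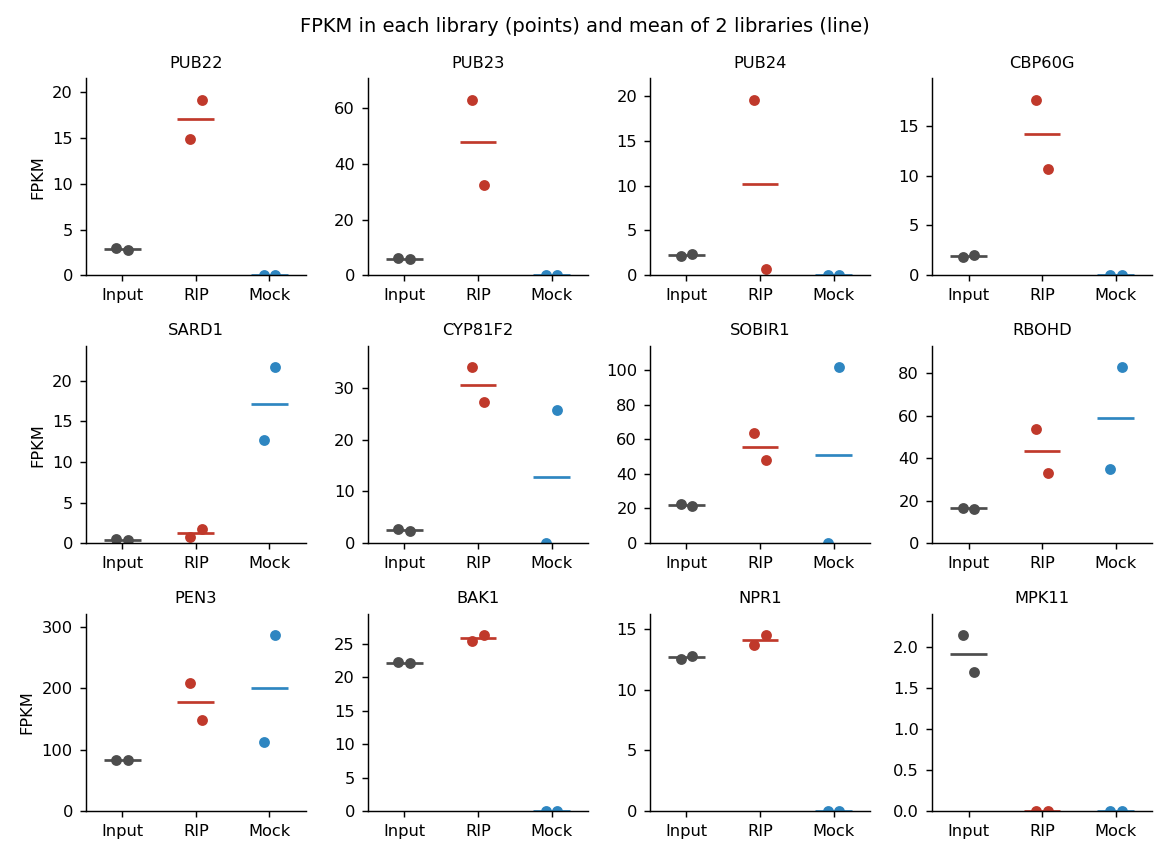
FPKM of 12 immune genes in each library (points, 2 per group) with the mean of the group (line), each panel on its own linear axis from 0. PUB22, PUB23 and CBP60G have both RIP points above Input and Mock at 0, SARD1 is highest in Mock, RBOHD and PEN3 have Mock points as high as RIP, and MPK11 has no read in RIP.

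Receptor genes were mostly at or above their Input level in RIP, without a call. FLS2 (AT5G46330), the flagellin receptor, stood at 4.24 and 4.54 FPKM in Input, 25.2 and 6.26 in RIP (171 and 26 reads) and 0 in Mock. Mainly RIP replicate 1 was above Input, and its log2 fold change was 1.35 ± 0.668 (limma with Benjamini-Hochberg, adjusted p = 0.264). Without RIP replicate 2 it was 2.28 and passed both thresholds (limma with Benjamini-Hochberg, adjusted p = 0.000309). EFR (AT5G20480), the receptor of EF-Tu, was at 1.96 and 1.52 FPKM in Input, 3.63 and 6.65 in RIP and 0 in Mock, with a log2 fold change of 1.13 ± 0.281 (limma with Benjamini-Hochberg, adjusted p = 0.0644). PEPR1 (AT1G73080), a receptor of Pep peptides, was at 8.91 and 8.17 FPKM in Input, 20.1 and 16.3 in RIP and 0 in Mock. Its RIP libraries agreed closely and lay above Input, but its log2 fold change of 1.00 ± 0.197 is below the fold threshold (limma with Benjamini-Hochberg, adjusted p = 0.0346). PEPR2 (AT1G17750), the second Pep receptor, was at 1.39 and 1.83 FPKM in Input and 1.85 and 2.21 in RIP, on 11 and 8 RIP reads, and 0 in Mock. CERK1 (AT3G21630), the chitin co-receptor, was the receptor gene with RIP below Input, at 12.9 and 13.9 FPKM in Input and 11.2 and 7.51 in RIP, and it was at 0 and 32.7 in Mock.

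Among the partners of the receptors, BAK1 (AT4G33430), the common co-receptor, was nearly level, at 22.2 FPKM in both Input libraries, 25.4 and 26.3 in RIP, and 0 in Mock. BIK1 (AT2G39660), the cytoplasmic kinase released by activated receptors, was at 8.85 and 9.31 FPKM in Input, 9.12 and 15.9 in RIP and 0 in Mock. SOBIR1 (AT2G31880), the kinase that serves receptor-like proteins, was at 22.3 and 21.5 in Input, 63.5 and 48.1 in RIP and 0 and 102 in Mock. SOBIR1 was thus above Input in both RIP libraries and higher still in Mock replicate 2, on 33 reads, and its log2 fold change of 1.29 had an SE of 2.39. The oxidase RBOHD (AT5G47910), which makes the oxidative burst, was above Input in both pull-downs, with 16.5 and 16.2 FPKM in Input, 53.8 and 32.9 in RIP and 35.1 and 82.8 in Mock. The log2 fold change of RBOHD was 1.31 ± 0.589 over Input and -0.35 over Mock, whose values overlapped those of RIP. CPK28 (AT5G66210), a calcium-dependent kinase that promotes the turnover of BIK1, had nearly equal RIP values of 33.8 and 33.2 FPKM against 9.48 and 9.07 in Input, and 0 and 35.9 in Mock. Its ratio of RIP to Input was 3.61, and its log2 fold change of 1.75 ± 1.86 carried the spread of the Mock libraries, which share the estimate of error. The gene CPK28 overlaps a neighbour on the same strand, and reads in the overlap may be lost to its count.

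Values of the MAP kinase cascade lay on both sides of Input. MPK6 (AT2G43790) was at 31.1 and 30.1 FPKM in Input, 42.3 and 38.2 in RIP and 2.95 and 0 in Mock. MPK3 (AT3G45640), which is activated beside it by the same upstream kinases, was at 37.9 and 39.6 in Input, 78.8 and 22.03 in RIP and 0 in Mock, so that its RIP libraries lay on either side of Input. MPK4 (AT4G01370), which acts in a separate branch of the cascade, was below Input in both RIP libraries, at 4.18 and 8.64 FPKM against 16.8 and 16.5, and at 0 and 2.28 in Mock. Its log2 fold change was -1.32 ± 0.706 (limma with Benjamini-Hochberg, adjusted p = 0.299). MPK11 (AT1G01560, chromosome 1, 202103 to 204440), the closest relative of MPK4, was at 2.15 and 1.69 FPKM in Input on 109 and 79 reads and had no read in RIP or Mock. At its Input level 5.67 and 3.46 reads would have fallen in the RIP libraries, and 0 reads allow up to 1.02 and 1.66 FPKM there. Its fitted log2 fold change of -1.54 ± 0.0889 (limma with Benjamini-Hochberg, adjusted p = 0.000813) depends on the pseudocount and stayed inside the fold threshold. It was -4.33 with a pseudocount of 0.1, which added MPK11 as the only immune gene called lower, and -0.05 after quantile normalization. The upstream kinases MKK4 (AT1G51660), with 6.33 and 6.63 FPKM in Input and 10.9 and 19.3 in RIP, and MKK5 (AT3G21220), with 9.45 and 9.74 in Input and 18.2 and 10.6 in RIP, were both above Input in each RIP library. In Mock, MKK4 was at 90.2 and 0 FPKM and MKK5 at 0 and 51.2, on 36 and 19 reads, so that each was seen in the IgG library where the other was not. MKK4 also overlaps a same-strand neighbour.

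Genes of penetration resistance, which arrest fungi at the cell wall, had RIP above Input in the secretion genes. The syntaxin SYP121 (AT3G11820) stood at 14.1 and 15.2 FPKM in Input, 52.8 and 37.6 in RIP and 0 and 11.7 in Mock, the last on 3 reads. With a ratio of 3.09 and a log2 fold change of 1.54 ± 1.34 it was the highest of these genes (limma with Benjamini-Hochberg, adjusted p = 0.536). Its relative SYP122 (AT3G52400) was at 14.6 and 14.2 in Input, 26.3 and 35.9 in RIP and 0 and 136 in Mock. PEN3 (AT1G59870), an ABC transporter of the plasma membrane, was the most abundant of the 42 genes in Input and RIP, at 82.7 and 83.6 FPKM in Input, 209 and 148 in RIP and 113 and 287 in Mock. It alone gave 110 of the 201 reads of the set in Mock replicate 1 and 218 of 418 in replicate 2, and its RIP and Mock values overlapped. PEN2 (AT2G44490), a glucosinolate-cleaving enzyme, was nearly level at 72.2 and 70.3 FPKM in Input and 81.0 and 75.0 in RIP, with 0 and 49.6 in Mock. MLO12 (AT2G39200), one of the membrane proteins that powdery mildew needs for entry, was below Input in both RIP libraries at 4.78 and 5.38 FPKM against 7.65 and 7.21, and was 0 in Mock. Its log2 fold change of -0.47 ± 0.131 is close to the median of all features (limma with Benjamini-Hochberg, adjusted p = 0.0831).

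The outputs and the partners of intracellular receptors were low and uneven. CYP81F2 (AT5G57220, chromosome 5, 23187840 to 23189902), which modifies indole glucosinolates for PEN2, had the highest log2 fold change of the set. It stood at 2.74 and 2.42 FPKM in Input (133 and 108 reads), 34.0 and 27.2 in RIP (96 and 47 reads) and 0 and 25.7 in Mock (7 reads). Both RIP libraries were above Input by a ratio of 11.9, and Mock replicate 2 came close to them. Its log2 fold change was 3.14 ± 1.69 (limma with Benjamini-Hochberg, adjusted p = 0.304). With only the RIP and Input libraries fitted, and so without the spread of Mock, it passed both thresholds against Input (limma with Benjamini-Hochberg, adjusted p = 0.00514), as it did without either Mock library (0.00335 and 0.00553). PAD3 (AT3G26830), the last enzyme of camalexin synthesis, was at 1.70 and 2.54 FPKM in Input, 0 and 6.33 in RIP and 0 in Mock. NHL10 (AT2G35980), an early marker of pattern responses, was at 0.763 and 1.02 in Input, 1.79 and 10.7 in RIP on 3 and 11 reads, and 0 in Mock. FRK1 (AT2G19190), another such marker, was at 2.07 and 1.89 in Input, 2.55 and 1.14 in RIP and 0 in Mock. Of these, only NHL10 was above Input in both RIP libraries, and the others lay on either side of it. The thaumatin-like PR5 (AT1G75040) was at 2.39 and 2.20 FPKM in Input, 6.85 and 0 in RIP and 0 in Mock. PROPEP3 (AT5G64905), the precursor of a Pep peptide, was at 0.701 and 1.296 in Input and 0 and 3.94 in RIP on 2 reads, and 0 in Mock. NDR1 (AT3G20600), required by several intracellular receptors, was at 5.32 and 5.58 in Input, 21.9 and 4.10 in RIP on 35 and 4 reads, and 0 in Mock. RIN4 (AT3G25070), the protein such receptors guard, was at 10.7 and 11.4 in Input, 8.79 and 8.85 in RIP and 60.1 and 3.51 in Mock. These genes showed no common direction.

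The remaining genes of the set were too low to test. PR1 (AT2G14610), the standard marker of salicylic acid responses, had 0 and 1 read in Input, 0 and 6 in RIP and none in Mock. The glucanase gene PR2 (AT3G57260) had 4 and 3 reads in Input, and the Pep precursor PROPEP2 (AT5G64890) had 10 and 5, with none in RIP or Mock. At their Input levels PR2 and PROPEP2 would have given fewer reads in either RIP library than can be detected (0.211 and 0.129 for PR2, and 0.449 and 0.274 for PROPEP2), so that a difference was not detectable at this depth.

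Mock, at 0 in both libraries, added no spread to the shared estimate of error of PUB22 and CBP60G but was averaged into it. These zeros are limited by depth, since 3 reads would have given 9.56 FPKM for PUB22 and 7.51 for CBP60G, averaged over the Mock libraries. The calls of these genes depended on the fit. Both lost the adjusted p when RIP and Input were fitted alone (limma with Benjamini-Hochberg, adjusted p = 0.0153 for PUB22 and 0.0267 for CBP60G), when either Mock library was left out (0.0155 to 0.0262) and with voom on the recovered reads (0.533 for both). After quantile normalization PUB22 lost it (limma with Benjamini-Hochberg, adjusted p = 0.0126) and CBP60G kept it (0.0053). Without either Input library no feature of the whole table was called, and the log2 fold changes of these genes were then 2.15 to 2.37. The smallest log2 fold change of PUB22 under the settings run was 2.02, without RIP replicate 2, and that of CBP60G was 1.99, without RIP replicate 1.

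**Figure D3:**
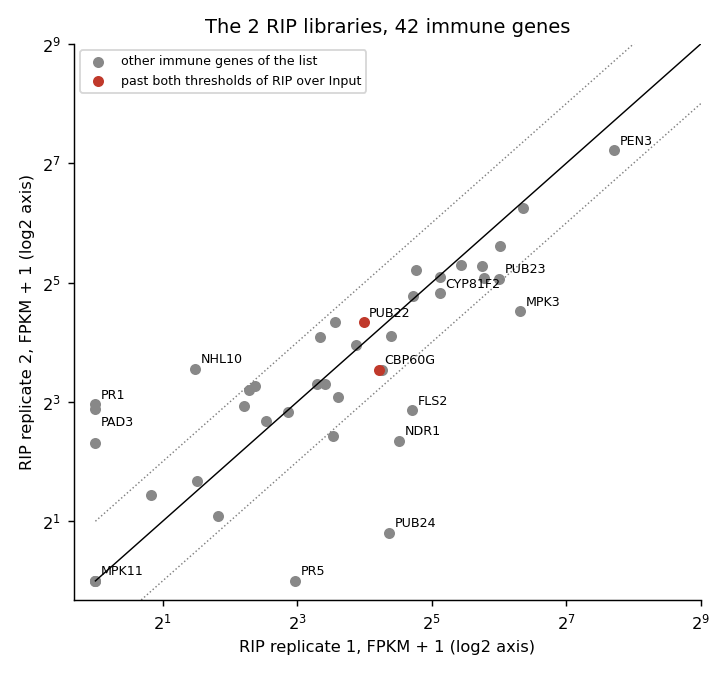
FPKM + 1 of the 42 immune genes in RIP replicate 1 against RIP replicate 2, both on log2 axes, with the line of equality (solid) and the 2-fold limits (dotted). PUB22 and CBP60G (red) lie between the 2-fold limits, whereas FLS2, PUB24, NDR1, MPK3, PR5 and EDS1 lie beyond them on the side of replicate 1 and NHL10, PAD3, PROPEP3 and the untested PR1 on that of replicate 2.

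Since each comparison rests on 2 RIP libraries, their agreement was examined. Of the 39 genes, 6 were more than 2-fold higher in RIP replicate 1 than in replicate 2 on the FPKM + 1 scale and 3 more than 2-fold lower, together 23.1%, against 34.8% of all features. The pooled SD between replicates was 0.0951 on the log2 scale in Input, 0.877 in RIP and 2.07 in Mock for these genes, and 0.0879, 0.931 and 1.73 for all features. The widest spread of the immune genes was thus in Mock. With 2 libraries a group an exact permutation test of a single value cannot give a two-sided p below 0.333, so that no such test was added.

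RIP was then compared with Mock, to ask which immune transcripts the HA antibody recovered beyond IgG. Higher than Mock were 13 of the 39 genes, and 34.3% of all features (limma with Benjamini-Hochberg, adjusted p under 0.01 and a log2 fold change of at least 1). The genes called were the receptor genes EFR, PEPR1 and PEPR2, the partners BAK1 and BIK1, the kinase MPK3, the ligases PUB22 and PUB23, the salicylic acid genes PAD4, ICS1, NPR1 and CBP60G, and MLO12. All 13 were at 0 in both Mock libraries, as were 22 of the 39 genes (56.4%) and 67.3% of all features, and their fitted fold changes therefore depend on the pseudocount. Measured against the level that 3 reads would give, averaged over the Mock libraries, MPK3 was at least 5.41-fold higher in RIP, PUB23 at least 4.70-fold, BAK1 at least 4.30-fold and PEPR1 at least 4.02-fold. NPR1 was at least 2.12-fold higher, CBP60G at least 1.88-fold, PUB22 at least 1.78-fold, BIK1 at least 1.44-fold and EFR at least 1.28-fold. Single RIP libraries moved some of these bounds: MPK3 was at least 2.36-fold higher without RIP replicate 1 and at least 8.45-fold without replicate 2. Without RIP replicate 2 the bound of BIK1 was 1.05-fold, and EFR was at 0.903 of the 3-read level, so that no difference of EFR from IgG was detectable in replicate 1 alone. The bounds of PUB23 were 6.21-fold and 3.19-fold with RIP replicate 1 and replicate 2 alone, and those of CBP60G 2.35-fold and 1.42-fold. PEPR2, PAD4, ICS1 and MLO12 had RIP means below that level, so that for them a difference from IgG was not detectable at the Mock depth. The median log2 fold change over Mock was 2.52 for the immune genes and 2.13 for all features, and a share of 13 in 39 is near the background of 34.3%. The number was 0 when RIP and Mock were fitted alone (with PUB22 at an adjusted p of 0.0104, limma with Benjamini-Hochberg), after quantile normalization (with 2 then lower, SARD1 and MPK11) and with voom, and 20 without Mock replicate 2.

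The Mock libraries themselves were compared with Input, as the background of the pull-down. Lower in Mock than in Input were 9 of the 39 genes, against 41.0% of all features (limma with Benjamini-Hochberg, adjusted p under 0.01 and a log2 fold change below -2). These were PEPR1, BAK1, BIK1, MPK3, PUB23, PAD4, ICS1, NPR1 and MLO12, all of which were also among the 13 higher in RIP than in Mock. Both comparisons use the same Mock values of 0, so that this overlap is no further support. The Input means of PUB23, PAD4 and MLO12 (6.03, 4.55 and 7.43 FPKM) were below the level of 3 Mock reads (10.2, 7.68 and 8.28). For these genes a drop from Input was not detectable at the Mock depth. The Input means of BIK1 (9.08 against 8.70) and ICS1 (8.04 against 7.94) lay just above that level. The median log2 fold change of Mock over Input was -1.58 for the immune genes and -2.70 for all features. In Mock replicate 1, 32 of the 39 genes had no read, 2 had 1 to 3 reads and 5 had more, and in replicate 2 the numbers were 24, 4 and 11. Reads in both Mock libraries were found for 5 genes, RBOHD, EDS1, SARD1, PEN3 and RIN4. For the genes seen in 1 Mock library only, such as SOBIR1, CPK28, SYP122, MKK4, MKK5 and CYP81F2, the spread of Mock enters the error of every comparison of that gene. For genes at 0 in both Mock libraries, PUB22 and CBP60G among them, Mock added no spread to that error but was averaged into it. When all criteria were joined (higher than Input, higher than Mock and at least 2 CPM, that is reads scaled to library size, in each RIP library), PUB22 and CBP60G passed, 2 of 39 genes, where 0.923% of the features with an annotated exon length did so.

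The immune genes differ in gene structure, a property that took no part in their choice. Of the 39 genes, 7 have no intron in any annotated transcript (SOBIR1, MKK4, PUB22, PUB23, NDR1, NHL10 and PROPEP3), 12 have 1 to 2 introns in the transcript with most, and 20 have 3 or more. The intronless genes had a median log2 fold change over Input of 1.29 in RIP, and all 7 lay above 0. It was 0.95 in genes with 1 to 2 introns (10 of 12 above 0) and 0.13 in those with 3 or more (12 of 20 above 0). CBP60G, with up to 5 introns, RBOHD, with 7, and CPK28, with up to 13, were exceptions, with log2 fold changes of 2.33, 1.31 and 1.75. Over all protein-coding genes tested, the medians were -0.08 (n = 2588), -0.58 (n = 4674) and -0.57 (n = 11828), and 3.36%, 1.13% and 0.372% were called higher in RIP than in Input. The immune genes thus had the higher median in each class. Intron number moved together with other measures: over the same classes the Input medians of all protein-coding genes were 5.65, 9.63 and 12.2 FPKM and their median log2 fold changes of Mock over Input were -2.13, -2.65 and -2.91, and the part of either in the RIP difference was not tested. Within genes under 10 FPKM in Input, the medians of RIP over Input were 1.33 (n = 6), 0.70 (n = 10) and 0.38 (n = 9) for the immune genes and 0.14, -0.37 and -0.48 for all. As a description across genes that share the same libraries, Spearman's rho between intron number and log2 fold change was -0.374 over the 39 genes and -0.0618 over 19090 protein-coding genes, and rho with exon length was -0.0453 and 0.355.

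**Figure D4:**
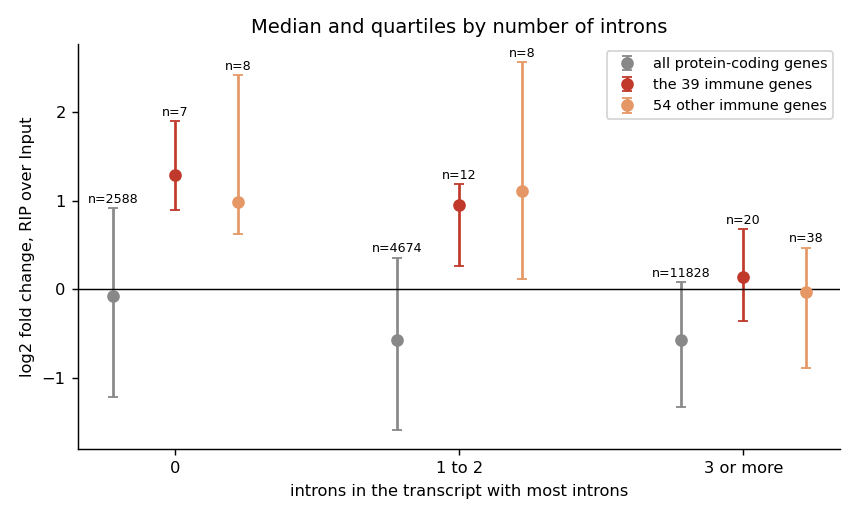
Median (point) and quartiles (bar) of the RIP over Input log2 fold change for genes with 0, 1 to 2 and 3 or more introns, for all protein-coding genes tested, the 39 immune genes and 54 other immune genes, with the number of genes above each bar. The median of the 39 immune genes goes from 1.29 through 0.95 to 0.13, that of all protein-coding genes from -0.08 to -0.58 and -0.57.

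A further list of 58 immune genes outside the set, covering other receptors, kinases, phosphatases, intracellular receptors and trafficking proteins of the same pathways, was examined in the same fit. This list, like the set, was chosen with earlier results of these data known. Its shares therefore describe the listed genes and are no independent support. Of these, 54 were tested, 5 were higher in RIP than in Input (9.26%, against 1.48% of all features) and 1 was lower (1.85%, against 5.78%), and their median log2 fold change was 0.13, against -0.52 over all features (limma, Benjamini-Hochberg). LYK5 (AT2G33580), the main chitin-binding receptor and partner of CERK1, stood at 2.01 and 2.14 FPKM in Input, 27.7 and 36.9 in RIP and 0 in Mock. Its log2 fold change was 3.42 ± 0.202 (limma with Benjamini-Hochberg, adjusted p = 0.000873), and its RIP values were at least 5.18-fold above the level of 3 reads in Mock. Its relative LYK4 (AT2G23770) was at 3.01 ± 0.478 FPKM in Input and 17.9 ± 3.03 in RIP (SD, n = 2) and 0 in Mock, a log2 fold change of 2.23 ± 0.196 (limma with Benjamini-Hochberg, adjusted p = 0.00322). LYK5 and LYK4 were therefore called, while CERK1 in the same receptor complex had a log2 fold change of -0.50 ± 1.82. The SE of CERK1 carries its Mock values of 0 and 32.7 FPKM, and the difference between these genes was not tested. The other genes called higher act in or on kinase signalling or restrain cell death: MKK9 (AT1G73500), a MAP kinase kinase, with a log2 fold change of 2.98 ± 0.268, the phosphatase AP2C1 (AT2G30020), which inactivates MAP kinases, with 2.44 ± 0.190, and BAP1 (AT3G61190), a partner of the membrane protein BON1, with 2.93 ± 0.312. Their adjusted p values (limma with Benjamini-Hochberg) were 0.0035, 0.00216 and 0.00593, all 3 were at 0 in Mock, and MKK9 and AP2C1 were at least 5.05-fold and 4.05-fold above the level of 3 Mock reads. The RIP mean of BAP1, 11.6 FPKM, was below that level, 12.4 FPKM, so that for BAP1 a difference from IgG was not detectable at the Mock depth. BAP1 was at 0.520 and 0.650 FPKM in Input and 15.2 and 8.04 in RIP. It therefore reached 1 FPKM in RIP only, and was tested only because RIP was high. PROPEP1 (AT5G64900), a Pep precursor, was the gene called lower, with 4.40 ± 0.572 FPKM in Input (SD, n = 2) and no read in RIP or Mock (limma with Benjamini-Hochberg, adjusted p = 0.000216). At its Input level 4.87 and 2.97 reads would have fallen in the RIP libraries, and 0 reads allow up to 2.71 and 4.44 FPKM there, so that RIP replicate 2 could hold the Input level, and the fitted change depends on the pseudocount. The median of the 8 intronless genes of this list was 0.98, that of the 8 genes with 1 to 2 introns was 1.11 and that of the 38 genes with 3 or more was -0.04. Higher in RIP than in Mock were 23 of the 54 (42.6%, against 34.3% of all features) and lower in Mock than in Input were 21 (38.9%, against 41.0%). All 5 genes higher than Input also met every target criterion, BAP1 among them in spite of the limits given above.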

How the data were processed

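The deposited table holds 1 column per library. Although named a count table, it holds FPKM, which the authors computed from reads aligned with STAR and counted by strand with summarizeOverlaps in Union mode. Versions are not given in the sources used here, and the build named in the submitters' notes is TAIR10. Libraries were made from rRNA-depleted RNA with a stranded kit and read at 1 end over 75 bp. After multiplication with merged exon lengths (RefSeq, TAIR10.1), 99.2 to 99.3% of values came out as whole multiples of 1 step per library, within 0.02 reads, and these gave the reads and library totals. A read was worth 0.0364 to 0.0396 CPM in Input, 0.625 to 1.02 in RIP and 5.05 to 6.49 in Mock.

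Groups and replicate numbers come from the sample titles. The test was limma 3.58.1 in R 4.3.3 (empirical Bayes with a mean-variance trend) on log2(FPKM + 1) over all 6 libraries, with Benjamini-Hochberg adjustment over 19997 features of at least 1 FPKM in at least 2 libraries. A log2 fold change on this scale understates the change of low genes. In RIP and Mock, 968 features have no value and were left out. RIP over Input, and Mock over Input, required a log2 fold change beyond 2, RIP over Mock one of at least 1, each with an adjusted p under 0.01. The study's methods name DESeq2, which needs counts and was not used. The deposited values are FPKM, and the reads recovered from them were fitted with voom as an alternative only. Target criteria added at least 2 CPM in each RIP library, in place of the study's TPM. Alternatives were the compared groups alone, a replicate block, quantile and median-of-ratios scaling, a pseudocount of 0.1, other filters, each library left out, and voom on the recovered reads, which called 39 features higher in RIP than in Input. The members and lists were chosen with earlier results of these data known. All 42 members are named by role, the 39 tested ones with FPKM in every library and with reads where a result turns on them, and of the other immune genes those that were called. The gene of NSRa itself is not reported here.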

Additional observations from a re-analysis of the deposited data

How the results depend on the processing

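Across 14 alternatives to the fit, the number of immune genes higher in RIP than in Input was 2 as reported and 1 with only the 2 groups compared (CYP81F2), 1 after quantile normalization (CBP60G) and 0 with voom on the recovered reads. Leaving out 1 library gave 0 to 5, namely 0 without either Input library, 3 without RIP replicate 1 (NHL10, PUB22 and PUB23), 5 without RIP replicate 2 (CBP60G, FLS2, PUB22, PUB23 and PUB24) and 1 without either Mock library (CYP81F2). None was lower, except 1 (MPK11) with a pseudocount of 0.1. The number higher than Mock was 13, and 0 with the 2 groups alone, after quantile normalization and with voom, and 9 to 20 leaving out 1 library (20 without Mock replicate 2). The number lower in Mock than in Input was 9, and 0 after quantile normalization, 17 with a pseudocount of 0.1, 4 with voom and 0 to 16 leaving out 1 library (0 without either Input library and 16 without Mock replicate 2). Genes that met every target criterion numbered 2, and 0 with the 2 groups alone, after quantile normalization and with voom, and 0 to 5 leaving out 1 library (5 without RIP replicate 2). Where leaving out a library left a group with 1, that library was assumed to vary like the others. The cause of these moves was not tested.

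With the replicate number as a block, 0 immune genes were higher in RIP than in Input (limma with Benjamini-Hochberg, adjusted p = 0.0180 for PUB22 and 0.0279 for CBP60G) and 0 met every target criterion, while 10 were higher than Mock and 6 lower in Mock than in Input. Same-numbered libraries showed no shared deviation from their group means (correlations of 0.00846 for Input and RIP, -0.00166 for Input and Mock and 0.0122 for RIP and Mock), so that no pairing by number was detectable. These correlations cannot exclude pairing, since the Input libraries differed little. The pooled SD over all features was 0.0879 on the log2 scale in Input, 0.931 in RIP and 1.73 in Mock.

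Over all features, 296 were higher in RIP than in Input, against 152 with the replicate block, 39 with voom and 0 without either Input library. Lower were 1155, against 298 after quantile normalization, 1972 with a pseudocount of 0.1, 6 with voom, 2575 and 2482 without a RIP library and 0 without an Input library. Quantile normalization moved the all-feature median log2 fold change over Mock from 2.13 to -0.17, and the calls from 6853 higher and 36 lower to 228 and 1785, and median-of-ratios scaling moved it to 1.96. Of 532 log2 fold changes of the 39 genes over Input under these alternatives, 507 kept their side of the thresholds. Another 16 lost a call and 9 gained one, in 8 genes. All 16 losses were in PUB22 and CBP60G, the only genes with a call to lose in the reported fit. Most of the 507 belong to genes without such a call and do not measure how stable these calls were. Both genes lost the call with the compared groups alone, with the replicate block and with voom. Both kept it with median-of-ratios scaling, with a pseudocount of 0.1 and with other filters. Of the 532 values, 16 changed sign, in 11 genes, but none in the 17 genes with a log2 fold change beyond 1.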
